A study of Mus musculus with 16 samples.

Results

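The TRBJ1 cluster is the 5′ of the mouse T cell receptor (TCR) beta locus's J clusters, and its 6 used members, TRBJ1-1 to TRBJ1-6, are described here. Its members were taken as all TRB contigs labelled with one of these J segments in cells that carried exactly 1 TRB contig. That gave 19742 of 66438 such cells, and 14615 of 47924 beta clonotypes, a beta clonotype being the V label, the J label and the CDR3 nucleotides (CDR3, the third complementarity-determining region) within 1 library. The other 46696 cells and 33309 clonotypes used a TRBJ2 segment.

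The cells were CD44high CD4+ T cells sorted from mouse spleen on day 18 after a graft of Vk12653 (Vk*Myc) myeloma cells at day 0. All mice had received 50 µg of an antibody that depletes NK1.1-bearing cells on days -2 and 5, and then 20 µg of agonistic anti-4-1BB (anti-CD137) or control IgG on days 10, 13 and 16. Anti-4-1BB-treated Eomes knockout (KO), anti-4-1BB-treated wild-type (WT), IgG-treated KO and IgG-treated WT mice each gave 1 TCR library in each of 2 experiments, marked as batches ASD2 and ASD1. KO mice were Eomesfl/fl-ERT2CD4Cre with tamoxifen in experiment 2 and Eomesfl/fl-CD4Cre in experiment 1, with a Cre named for CD4 in both. WT mice carried the Eomes-IRES-GFP reporter in both experiments and had tamoxifen in experiment 2, so Cre type, tamoxifen and experiment cannot be told apart. The labels do not say how many mice a library holds, so every p below measures the spread between libraries. The 8 gene expression libraries of the same sorts were not analysed here.

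A TCR beta chain is assembled in the thymus when a D segment is joined to a J segment and a V segment is then joined to both. TRBD1 lies upstream of both J clusters and can join either, whereas TRBD2 lies between the clusters and by direct deletion reaches TRBJ2 segments. Bases are trimmed and added at each joint, which makes most of the CDR3, and the J segment supplies its last residues and the framework 4 that follows. The choice of TRBJ cluster also sets the constant region, TRBC1 for TRBJ1 and TRBC2 for TRBJ2.

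The segments lie in the plus orientation on mouse chromosome 6 within 2342 bases of the end of TRBD1 (RefSeq coordinates, build GRCm38.p6). TRBJ1-1 is at chr6:41533864-41533911 and starts 652 bases after the end of TRBD1, and TRBJ1-2 is at chr6:41534001-41534048, 789 bases after it. TRBJ1-3 is at chr6:41534323-41534372, TRBJ1-4 at chr6:41534811-41534861 and TRBJ1-5 at chr6:41535084-41535133. TRBJ1-6 is the farthest, at chr6:41535554-41535606 and 2342 bases from TRBD1. The annotated TRBJ1-7 had 0 cells. In the transcript a joined TRBJ1 segment is spliced to TRBC1, which starts at position 41538219. The sequences are shown because the CDR3 measures below rest on how many of their bases each chain kept. They were read from the contigs as the most frequent CDR3 end and framework 4 of each segment, with the start set by the annotated length. Capitals mark the bases that fall in the CDR3, and the framework 4 follows in lower case.
TRBJ1-1: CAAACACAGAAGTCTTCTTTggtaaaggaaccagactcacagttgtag
TRBJ1-2: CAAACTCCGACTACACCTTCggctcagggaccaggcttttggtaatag
TRBJ1-3: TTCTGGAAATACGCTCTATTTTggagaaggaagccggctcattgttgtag
TRBJ1-4: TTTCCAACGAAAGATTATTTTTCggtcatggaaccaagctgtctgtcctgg
TRBJ1-5: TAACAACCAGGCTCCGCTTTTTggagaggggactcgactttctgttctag
TRBJ1-6: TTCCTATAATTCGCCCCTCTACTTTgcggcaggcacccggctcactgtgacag

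TRBJ1-1 and TRBJ1-2 bring 20 bases to the CDR3, TRBJ1-3 and TRBJ1-5 bring 22, TRBJ1-4 brings 23 and TRBJ1-6 brings 25. All carry 28 bases of framework 4. At least 99.8% of the clonotypes of TRBJ1-1, TRBJ1-2, TRBJ1-3, TRBJ1-4 and TRBJ1-6 had the framework 4 shown, against 87.0% of those of TRBJ1-5, which is taken up below.

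The libraries held between 4090 and 12669 cells with exactly 1 TRB, with a median of 9 to 17 TRB unique molecular identifiers (UMIs) per cell, and 30.0 to 51.4% of these cells had no TRA contig. The experiment 1 WT anti-4-1BB library stood apart. It had the most cells, 1367 of the 4077 cells that were left out because they had more than 1 TRB, and a framework 4 sequence of TRBJ1-5 that no other library had. Results that rest on it are given with and without it. Pairs of libraries shared 35 to 245 cell barcodes, at most 2.35% of the smaller library, and 0 of the shared barcodes carried the same TRB. Invariant NKT receptors (TRAV11 or TRAV11D joined to TRAJ18) were in 231 cells and MAIT receptors (TRAV1 joined to TRAJ33) in 5.

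TRBJ1 segments took 30.4 ± 1.25% of the beta clonotypes of a library, against 69.6 ± 1.25% for TRBJ2 segments (mean ± SD, n = 8 libraries). The share was 29.5, 30.0, 28.3 and 32.02% in the anti-4-1BB libraries (KO of experiments 2 and 1, then WT of experiments 2 and 1) and 31.4, 31.7, 30.1 and 29.9% in the IgG libraries in the same order. These ranges overlap. By cells rather than clonotypes the cluster took 29.6 ± 2.05%.

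Within the cluster the segments differed in use, and chromosomal order did not give the order of use. TRBJ1-1, the nearest to TRBD1, led with 9.06 ± 0.73% of clonotypes, followed by TRBJ1-4 with 6.26 ± 0.20%, TRBJ1-3 with 5.23 ± 0.23% and TRBJ1-2 with 5.11 ± 0.28%. TRBJ1-6 took 2.49 ± 0.26% and TRBJ1-5 2.21 ± 0.41%. In the order of all 12 TRBJ segments in use, TRBJ1-1 was sixth, below TRBJ2-3 at 9.98% and above TRBJ2-2 at 6.68%, and TRBJ1-4, TRBJ1-3, TRBJ1-2, TRBJ1-6 and TRBJ1-5 filled the last 5 places. Of the neighbours in this order, TRBJ2-3 and TRBJ1-1 (adjusted p = 0.110), TRBJ1-3 and TRBJ1-2 (adjusted p = 0.630) and TRBJ1-6 and TRBJ1-5 (adjusted p = 0.172) did not differ beyond their spread in a two-sided exact sign-flip permutation test over the 8 libraries, adjusted over 11 neighbour pairs. TRBJ2-2 was above TRBJ1-4 in 7 of 8 libraries (adjusted p = 0.0286, exact permutation test). The steps from TRBJ1-1 to TRBJ2-2, from TRBJ1-4 to TRBJ1-3 and from TRBJ1-2 to TRBJ1-6 held in 8 of 8 libraries (adjusted p = 0.0172 each, exact permutation test, in which 0.00781 is the smallest unadjusted p).

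**Figure D1:**
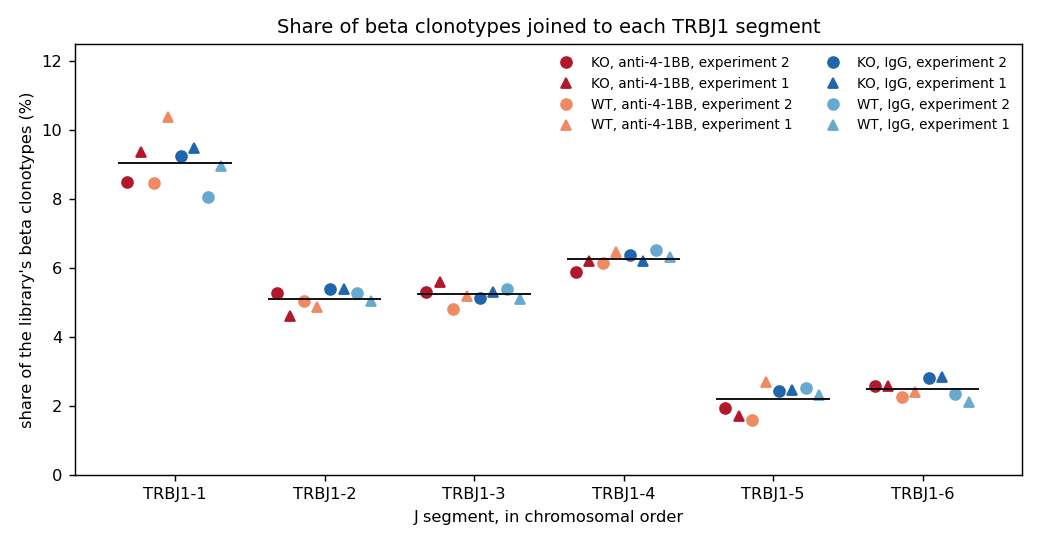
Share of each library's beta clonotypes (vertical axis, %) joined to each TRBJ1 segment (horizontal axis, in chromosomal order). Each point is 1 library, circles are experiment 2 and triangles experiment 1, colours are the groups, and the black line is the mean of 8 libraries. TRBJ1-1 lies between 8.05 and 10.4%, TRBJ1-2 to TRBJ1-4 between 4.61 and 6.52%, and TRBJ1-5 and TRBJ1-6 between 1.58 and 2.84%.

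On average over clonotypes, the CDR3 of TRBJ1 chains kept more J bases and had fewer other bases than that of TRBJ2 chains. TRBJ1 chains matched their J segment over 18.87 ± 0.075 bases of the CDR3, against 17.84 ± 0.052 in TRBJ2 chains (difference 1.03 ± 0.082, higher in 8 of 8 libraries). The other bases, from the V end, the D segment and added bases, numbered 21.997 ± 0.104 in TRBJ1 chains and 23.6 ± 0.145 in TRBJ2 chains (difference -1.57 ± 0.145, lower in 8 of 8). The CDR3, counted in residues with its conserved cysteine and phenylalanine, was 13.62 ± 0.043 long in TRBJ1 clonotypes and 13.80 ± 0.054 in TRBJ2 clonotypes (difference -0.18 ± 0.036, shorter in 8 of 8). Each of these 3 differences had an adjusted p of 0.0107 in the exact sign-flip permutation test over 11 measures. In CDR3 length the segments of the clusters were interleaved. TRBJ2-2 was the longest (14.45 ± 0.093 residues), but TRBJ1-3 (14.09 ± 0.071) was longer than TRBJ2-4 (13.88 ± 0.099). TRBJ2-7 (13.20 ± 0.081) was shorter than TRBJ1-2 (13.41 ± 0.081). The annotated J lengths differ between the segments, so the J bases kept follow in part from the segments themselves. By segment the clusters overlapped in J bases kept. Of all 12 segments TRBJ2-2 kept the most (20.7 ± 0.135) and TRBJ2-7 the fewest (15.3 ± 0.103), with TRBJ1-1 next above TRBJ2-7 (17.2 ± 0.145). The higher TRBJ1 mean is thus not a trait of each segment.

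The sign of the length difference between the clusters was not the same in all sets of chains split by D label. A D label was present in 18.2 ± 1.06% of TRBJ1 clonotypes and in 23.0 ± 0.740% of TRBJ2 clonotypes (lower in 8 of 8 libraries, adjusted p = 0.0107, exact permutation test). Among labelled clonotypes TRBD1 made up 98.4 ± 0.575% for TRBJ1 and 52.2 ± 1.92% for TRBJ2. TRBD2 was named in 41 TRBJ1 clonotypes, 2 to 13 for each segment, and TRBD1 in 2626. Of chains with TRBD1, the CDR3 was longer with TRBJ1 than with TRBJ2, at 14.23 ± 0.061 against 14.07 ± 0.030 residues (8 of 8 libraries, adjusted p = 0.00879 over 9 comparisons, exact permutation test). These TRBJ1 chains had 24.94 ± 0.090 non-J bases and the TRBJ2 chains 25.15 ± 0.085, a difference of -0.21 ± 0.129 that was higher in 1 of 8 libraries (adjusted p = 0.0156, exact permutation test). TRBJ2 chains with TRBD2 were longer still, at 14.79 ± 0.090 residues, which left TRBJ1 chains with TRBD1 0.56 ± 0.0997 residues shorter in 8 of 8 libraries. Chains with no D label, the majority, were shorter with TRBJ1, at 13.49 ± 0.042 against 13.62 ± 0.057 residues. A missing label does not mean a missing D segment. Chains without a label had fewer non-J bases than labelled chains, at 21.35 ± 0.097 with TRBJ1 and 22.77 ± 0.158 with TRBJ2. The split by label thus selects on the make-up of the CDR3, and the part of this in the differences was not tested. TRBD1 is annotated with 12 bases and TRBD2 with 14.

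Within the cluster the mean CDR3 length ran from TRBJ1-3, at 14.09 ± 0.071 residues, through TRBJ1-4 at 14.02 ± 0.087 and TRBJ1-6 at 14.00 ± 0.153, to TRBJ1-5 at 13.60 ± 0.124, TRBJ1-2 at 13.41 ± 0.081 and TRBJ1-1 at 13.10 ± 0.075. The first 3 did not differ beyond their spread (adjusted p = 0.186 and 0.664, exact permutation test), and each later step held in 8 of 8 libraries (adjusted p = 0.0130). TRBJ1-1 clonotypes were most often 13 residues long (34.6%), and TRBJ1-3 clonotypes 14 (41.8%). TRBJ1-6, the longest segment, kept 20.4 ± 0.276 of its 25 CDR3 bases, while TRBJ1-3 kept 20.6 ± 0.0887 of 22 and TRBJ1-1 17.2 ± 0.145 of 20. In non-J bases the 6 segments lay close together, from 21.6 ± 0.314 for TRBJ1-6 to 22.3 ± 0.181 for TRBJ1-4, and the 6 TRBJ2 segments all lay above them, from 22.7 ± 0.354 for TRBJ2-2 to 24.3 ± 0.185 for TRBJ2-7. The step between TRBJ2-2 and TRBJ1-4 was higher in 7 of 8 libraries with an adjusted p of 0.0516 (exact permutation test).

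**Figure D2:**
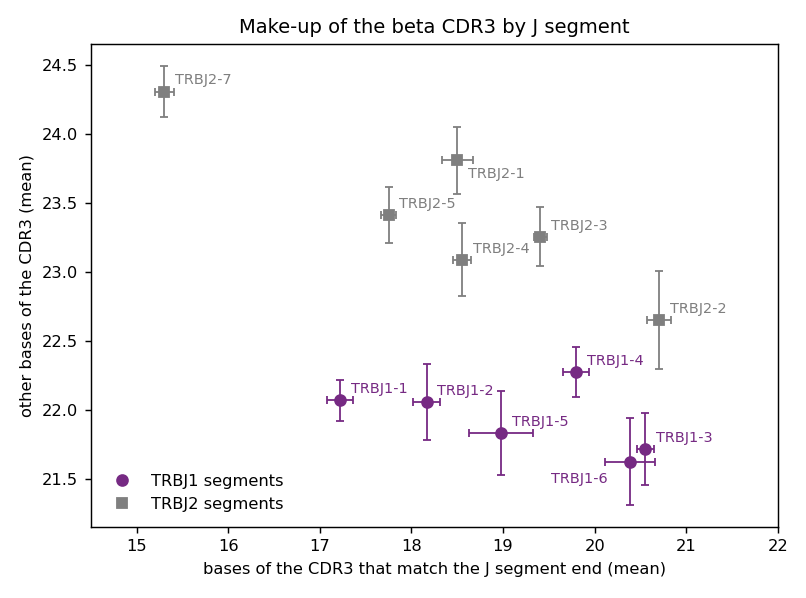
Mean number of CDR3 bases that match the J segment's end (horizontal axis) against the mean number of other CDR3 bases (vertical axis) for each of 12 TRBJ segments. Points are means of 8 libraries with bars of 1 SD, purple circles for TRBJ1 and grey squares for TRBJ2. TRBJ1 segments lie between 21.6 and 22.3 other bases and TRBJ2 segments between 22.7 and 24.3.

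The constant region followed the cluster. Of TRBJ1 cells, 19116 had a TRBC1 label, 0 had TRBC2 and 626 had none, which is 3.17% against 0.927% of TRBJ2 cells. TRBJ1 cells had fewer TRB UMIs, with a library median of 11.6 ± 2.45 against 13.5 ± 2.62 for TRBJ2 cells (lower in 8 of 8, adjusted p = 0.0107, exact permutation test). The part of this depth gap in the other cluster differences was not tested. The share of cells with no TRA was 41.6 ± 8.02% in TRBJ1 cells and 42.9 ± 7.65% in TRBJ2 cells (adjusted p = 0.215, exact permutation test).

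Each TRBJ1 segment met nearly the whole V repertoire, and TRBV13-2 was the first partner of all 6. All 21 V labels were seen with TRBJ1-1 to TRBJ1-5, and 20 with TRBJ1-6. TRBV13-2 took 11.1 ± 2.56% of TRBJ1-1, 16.2 ± 3.83% of TRBJ1-2, 14.7 ± 2.05% of TRBJ1-3, 12.2 ± 2.11% of TRBJ1-4, 17.2 ± 3.99% of TRBJ1-5 and 20.1 ± 5.55% of TRBJ1-6 clonotypes. TRBV31 was second for TRBJ1-1 (9.54%), TRBJ1-4 (11.8%), TRBJ1-5 (12.4%) and TRBJ1-6 (11.9%). TRBV3 was second for TRBJ1-2 (13.8%) and TRBV13-3 for TRBJ1-3 (9.10%).

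Joining was then set against independence, in which the count expected of a V-J pair is the product of its V and J totals in the same library. Of 167 pairs with at least 10 expected clonotypes per library on average, 63 (37.7%) departed from expectation at an adjusted p under 0.05 in edgeR's quasi-likelihood test. Of the 64 tested TRBJ1 pairs 32 departed, 17 above and 15 below, and of the 103 TRBJ2 pairs 31. The median size of the log2 ratio was 0.26 over TRBJ1 pairs and 0.19 over all pairs. In 19 of the 32 the ratio was on the same side in 8 of 8 libraries. TRBJ1-1 gave 6 of 16 tested pairs, TRBJ1-2 9 of 13, TRBJ1-3 6 of 13 and TRBJ1-4 3 of 14. For TRBJ1-5 and TRBJ1-6, 3 and 5 V partners had enough expected clonotypes to be tested, and 3 of 3 and 5 of 5 departed. More frequent partners with a lower expectation were not tested, such as TRBV1, which had 96 clonotypes with TRBJ1-5 and 104 with TRBJ1-6. Observed and expected counts share their totals, so pairs of 1 segment are not independent of each other.

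TRBV15 changed sides along the cluster. It was joined to TRBJ1-1 in 366 clonotypes, against 230 expected (log2 ratio 0.67 ± 0.085 SE, adjusted p = 1.03e-12, edgeR), and the ratio of observed to expected was between 1.22 and 1.98 in every library. It was joined to TRBJ1-2 in 47 clonotypes, against 128 expected (log2 ratio -1.44 ± 0.18, adjusted p = 2.85e-13, edgeR), with ratios from 0.191 to 0.594. TRBV15 was also below expectation with TRBJ1-3 (-0.68 ± 0.15) and TRBJ1-4 (-0.57 ± 0.13, 107 clonotypes against 158 expected), in 8 of 8 libraries each.

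TRBV3 gave the widest range. With TRBJ1-2 it had 336 clonotypes, against 228 expected (log2 ratio 0.55 ± 0.087), above expectation in 8 of 8 libraries. With TRBJ1-6 it had 36 clonotypes, against 111 expected (-1.604 ± 0.197, adjusted p = 2.85e-13, edgeR), the lowest ratio of all tested TRBJ1 pairs. The observed to expected ratio of TRBV3 with TRBJ1-6 was 0.159, 0.214, 0.261 and 0.217 in the anti-4-1BB libraries (KO of experiments 2 and 1, WT of experiments 2 and 1) and 0.517, 0.495, 0.347 and 0.475 in the IgG libraries in the same order. The treated libraries were all below the IgG libraries, but the pair rests on 2 to 10 clonotypes in a library and its difference between treatments, singled out after its values were seen, was not called (log2 -0.98 ± 0.40, adjusted p = 0.600, edgeR). With TRBJ1-5, TRBV3 had 74 clonotypes, against 103 expected (-0.48 ± 0.16).

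TRBV31, which lies at the 3′ end of the locus and is joined by inversion, was above expectation with 4 of 6 segments. Its log2 ratio was 0.35 ± 0.085 with TRBJ1-4 (344 clonotypes against 269 expected) and 0.37 ± 0.13 with TRBJ1-5 (126 against 96.7). It was also above expectation with TRBJ1-2 (0.47 ± 0.090) and TRBJ1-6 (0.40 ± 0.12), while with TRBJ1-1 (0.07 ± 0.074) and TRBJ1-3 (-0.11 ± 0.11) it was not called. TRBV5 was below expectation with TRBJ1-1 (-0.75 ± 0.12, 138 against 232), TRBJ1-2 (-0.99 ± 0.16) and TRBJ1-3 (-0.89 ± 0.16, 72 against 133). TRBV26 was the pair furthest above expectation for TRBJ1-3 (0.59 ± 0.11, 213 against 140). TRBV13-2 was that for TRBJ1-6 (0.61 ± 0.10, 243 against 157, above in 8 of 8 libraries), yet it was below expectation with TRBJ1-1 (-0.31 ± 0.073).

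**Figure D3:**
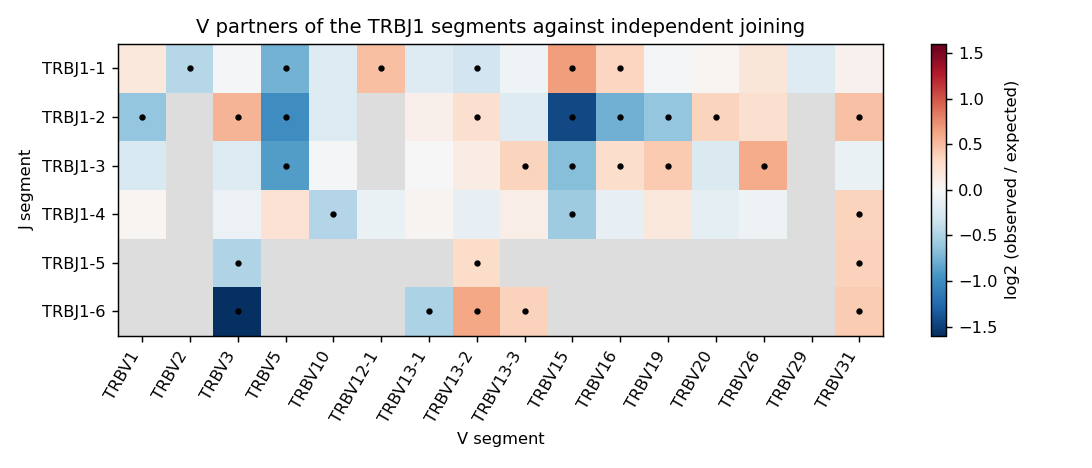
Log2 ratio of observed to expected clonotypes (colour, red above and blue below expectation) for the TRBJ1 segments (rows) and V segments (columns), from edgeR over 8 libraries. Dots mark pairs with an adjusted p under 0.05, and grey cells had fewer than 10 expected clonotypes per library on average. TRBV15 is red with TRBJ1-1 and blue with TRBJ1-2, TRBJ1-3 and TRBJ1-4, and the darkest blue is TRBV3 with TRBJ1-6, at -1.604.

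The V segments therefore differed in the share of their clonotypes that used any TRBJ1 segment. TRBV5 had the cluster in 21.9 ± 2.24% of its clonotypes and TRBV15 in 26.7 ± 2.22%, against 30.4% over all V segments (differences -8.46 ± 2.36 and -3.63 ± 2.34 points, lower in 8 of 8 libraries, adjusted p = 0.0328 each over 21 V segments, exact sign-flip permutation test). TRBV31 had it in 35.9 ± 2.70% and TRBV26 in 35.4 ± 3.91% (differences 5.51 ± 2.29 and 5.05 ± 3.21 points, higher in 8 of 8, adjusted p = 0.0328 each, exact permutation test). TRBV10 (-2.88 ± 1.70 points, lower in 8 of 8), TRBV17 (-9.67 ± 6.48, lower in 7 of 8) and TRBV29 (7.03 ± 5.53, higher in 7 of 8) also passed the threshold.

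The next comparison asks whether 4-1BB stimulation changed the use of the segments. None of the 6 was called between anti-4-1BB and IgG libraries, nor was any of the 33 TRB segments tested (0%, edgeR's quasi-likelihood test with Benjamini-Hochberg adjustment). At an unadjusted p under 0.05 there was 1, no TRBJ1 segment, and DESeq2 called 0. The log2 differences of TRBJ1-1 to TRBJ1-6 were 0.05, -0.08, 0.0006, -0.05, -0.24 and -0.03, with a median of -0.04 against -0.03 over all 33. Within KO mice and within WT mice the test also called 0 (0% each), with 1 and 2 segments at an unadjusted p under 0.05 and 0 by DESeq2. The difference between the treatment effects in KO and WT mice was called for 0 segments as well (0%, 1 unadjusted, DESeq2 0).

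TRBJ1-5 is the segment for which 1 library decided this. Its share of clonotypes was 1.95% and 1.69% in KO anti-4-1BB libraries (experiments 2 and 1) and 1.58% and 2.71% in WT anti-4-1BB libraries, against 2.44% and 2.45% in KO IgG libraries and 2.52% and 2.32% in WT IgG libraries. Of the 4 anti-4-1BB libraries 3 lay below all 4 IgG libraries, and the fourth, the experiment 1 WT anti-4-1BB library, lay above them. Over all libraries TRBJ1-5 had a log2 difference of -0.24 ± 0.14 (adjusted p = 0.627, edgeR). Without that library it was -0.50 ± 0.10 (adjusted p = 0.00065, edgeR), and within WT mice -0.61 ± 0.16 (adjusted p = 0.0168, edgeR). The value within WT mice then rests on 1 anti-4-1BB library, which is assumed to vary like the other groups.

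That library held TRBJ1-5 in a pair of framework 4 sequences that differ by T18C, with positions counted from 1 at the first base of framework 4. They are shown because this base is all that tells them apart. The capital marks it.
TRBJ1-5 first sequence: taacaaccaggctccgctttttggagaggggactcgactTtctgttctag
TRBJ1-5 second sequence: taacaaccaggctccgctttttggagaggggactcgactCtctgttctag

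The second sequence was in 143 of the 269 TRBJ1-5 clonotypes of the experiment 1 WT anti-4-1BB library (53.2%, exact 95% binomial interval 47.0 to 59.2%) and in 180 of its 337 cells. The first was in 125 clonotypes. In the other 7 libraries the second sequence was in 0 TRBJ1-5 clonotypes, which allows shares of up to 1.69 to 5.17% by the limit of 3 counts of the total (the exact 95% binomial upper limits are 2.06 to 6.16%, and all of these cover counting error only). The chains with either sequence were alike in make-up: each used 19 V segments, and the CDR3 averaged 13.7 ± 1.24 residues with the second and 13.5 ± 1.27 with the first (SD over clonotypes). The median was 18 UMIs with the second sequence and 11 with the first. In a scan of 6306 contig positions of 34 V and J segments, this was the 1 position at which a second base passed 5% of contigs in any library. The base change lies outside the CDR3 and does not enter the clonotype or the segment label.

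Leaving out the second sequence, an alternative chosen after the data were seen, lowers only that library by construction. The first sequence made up 1.26% of all clonotypes of that library, those with the second sequence included in the total. With the second sequence left out of the fit, the log2 difference of TRBJ1-5 between anti-4-1BB and IgG libraries was -0.59 ± 0.094 (adjusted p = 3.72e-06, edgeR). Where the second sequence comes from was not tested, nor was whether all cells of this library share the strain and source of the other WT libraries. Its TRBJ1-5 share of 2.71% and its other values carry that limit.

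**Figure D4:**
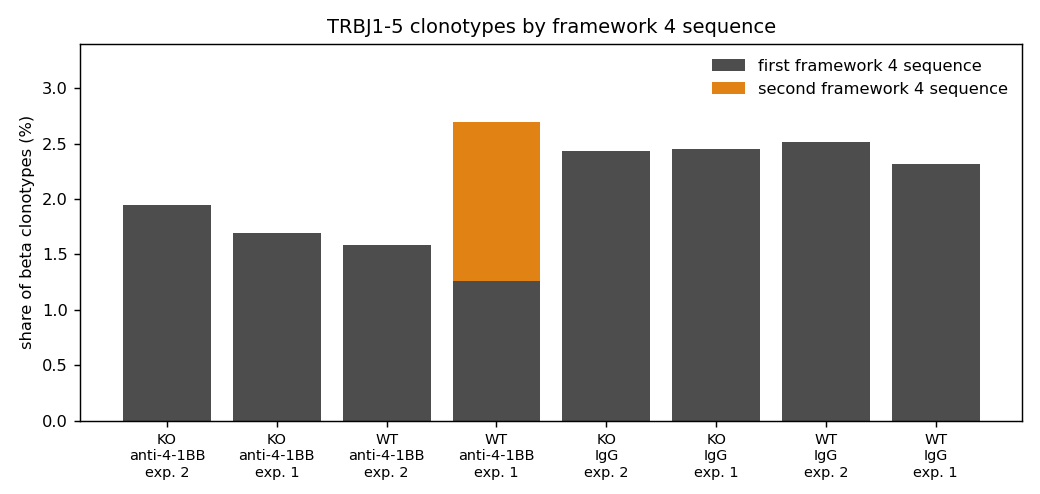
Share of beta clonotypes (vertical axis, %) that used TRBJ1-5 in each of the 8 libraries, stacked by framework 4 sequence. The second sequence (orange) is in the experiment 1 WT anti-4-1BB library alone, at 1.44% of clonotypes, where both sequences together make up 2.71%. The first sequence (dark grey) is between 1.26 and 1.95% in anti-4-1BB libraries and between 2.32 and 2.52% in IgG libraries. The 1.26% is the first sequence of that WT library as a share of all its clonotypes.

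Loss of Eomes gave no call either. Between KO and WT libraries 0 of 33 segments were called (0%, edgeR), with 2 at an unadjusted p under 0.05 and 0 by DESeq2. TRBJ1-6 was the one TRBJ1 segment among those 2. Its share was 2.56% and 2.57% in KO anti-4-1BB libraries (experiments 2 and 1) and 2.81% and 2.84% in KO IgG libraries, against 2.25% and 2.40% in WT anti-4-1BB libraries and 2.36% and 2.12% in WT IgG libraries. All 4 KO libraries lay above all 4 WT libraries, with a log2 difference of 0.23 ± 0.074 (adjusted p = 0.164, edgeR). TRBJ1-4 was lower in the KO library of each of the 4 matched pairs, by 0.20 ± 0.077 points on average (6.16% in KO and 6.37% in WT), although the ranges overlap. Its p was 0.125, the smallest that 16 arrangements allow, and 0.5 after adjustment over 12 TRBJ segments (exact permutation test). TRBJ2-7 was also lower in each pair, with a larger difference (-0.68 ± 0.51 points) and the same p and adjusted p. The log2 differences of TRBJ1-1, TRBJ1-2, TRBJ1-3 and TRBJ1-5 were 0.01, 0.04, 0.05 and -0.14. Within anti-4-1BB libraries and within IgG libraries 0 segments were called (0% each), with 0 and 2 at an unadjusted p under 0.05 and 0 by DESeq2.

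Without the experiment 2 WT anti-4-1BB library, the calls for TRBJ1-1 and TRBJ1-5 changed in contrasts that use WT anti-4-1BB mice, which then rest on experiment 1 for that group. TRBJ1-1 was then called higher with anti-4-1BB within WT mice (log2 0.29 ± 0.069, adjusted p = 0.00558) and lower in KO than WT under anti-4-1BB (-0.24 ± 0.071, adjusted p = 0.0343). TRBJ1-5 was called lower in KO than WT under anti-4-1BB (-0.54 ± 0.13, adjusted p = 0.00505, edgeR throughout). The treatment effect in KO minus that in WT was then -0.37 ± 0.097 for TRBJ1-1 and -0.55 ± 0.17 for TRBJ1-5 (log2). The remaining WT anti-4-1BB library is the one with the second TRBJ1-5 sequence, and the lone library is assumed to vary like the other groups.

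TRBJ1-1 was the one TRBJ1 segment called between the experiments with all 8 libraries. In this and all other edgeR tests by experiment, the KO and WT libraries of a treatment served as replicates of each other. Its share was 8.50% and 8.47% in KO and WT anti-4-1BB libraries and 9.25% and 8.05% in KO and WT IgG libraries of experiment 2. In experiment 1 the same groups had 9.37% and 10.4%, then 9.48% and 8.97%. Each of the 4 groups was lower in experiment 2, by 0.98 ± 0.70 points on average, although the ranges overlap. The log2 difference was -0.16 ± 0.050 (adjusted p = 0.0329, edgeR), and TRBJ1-1 was 1 of 2 segments called of 33 (6.06%), the other being TRBV12-1. DESeq2 also called 2 segments but not TRBJ1-1 (adjusted p = 0.348). The call was lost with cells counted in place of clonotypes (-0.13 ± 0.11, adjusted p = 0.543) and without the clonotypes that used TRBV12-1 (-0.14 ± 0.049, adjusted p = 0.102). With edgeR it was lost as well with genotype as a term (adjusted p = 0.167), with TMM factors (0.0684), with the joined V label kept apart (0.0546) and with at least 3 UMIs per TRB (0.05004, just above the threshold). It was also lost without any one of 6 libraries (adjusted p = 0.0519 to 0.288), namely both WT IgG libraries, the experiment 1 KO IgG library, both WT anti-4-1BB libraries and the experiment 2 KO anti-4-1BB library.

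TRBV12-1 was the V segment called between the experiments, and its pairs with TRBJ1-1 and TRBJ1-4 were called as well. The pair of TRBV12-1 and TRBJ1-1 had 1 and 39 clonotypes in KO anti-4-1BB libraries (experiments 2 and 1) and 7 and 101 in WT anti-4-1BB libraries, against 8 and 2 in KO IgG libraries and 6 and 12 in WT IgG libraries. As a share of clonotypes this was 1.14% and 1.02% in the KO and WT anti-4-1BB libraries of experiment 1 and at most 0.203% in every other library. TRBV12-1 with TRBJ1-4 had 1 and 16, then 1 and 40 clonotypes in the anti-4-1BB libraries in that order, against 5 and 1, then 3 and 9 in the IgG libraries. Both pairs were high in the same 2 libraries. Those libraries also had the highest shares of TRBV12-1 with any J segment, 7.80% in KO and 6.34% in WT, against 0.659 to 1.88% elsewhere. Within them TRBJ1-1 was joined to TRBV12-1 at 1.56 and 1.54 times the number expected under independence.

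Of 167 V-J pairs 11 (6.59%) were called between anti-4-1BB and IgG libraries within experiment 1 by edgeR, 4 of them with a TRBJ1 segment (DESeq2 called 9 pairs). The replicates of a treatment here were its KO and its WT library, so no group of mice was replicated. TRBV12-1 with TRBJ1-1 had a log2 difference of 2.81 ± 0.40 (adjusted p = 3.27e-07) and TRBV12-1 with TRBJ1-4 one of 1.97 ± 0.48 (adjusted p = 0.00282). TRBV2 with TRBJ1-1 was also higher (2.19 ± 0.67, adjusted p = 0.0317), on 3 and 25 clonotypes in the KO and WT anti-4-1BB libraries, against 2 in each IgG library. In experiment 2 the same pair had 5 and 4 clonotypes in the KO and WT anti-4-1BB libraries, against 15 and 11 in the IgG libraries. TRBV13-1 with TRBJ1-4 was lower (-1.22 ± 0.38, adjusted p = 0.0319), on 11 and 24 clonotypes against 13 and 46, and that call was lost without the experiment 1 WT anti-4-1BB library (-0.95 ± 0.49, adjusted p = 0.490) or the experiment 2 KO anti-4-1BB library (adjusted p = 0.0521). Without the experiment 1 WT anti-4-1BB library the other 3 pairs no longer had enough expected clonotypes to be tested, and without the experiment 1 KO anti-4-1BB library neither did TRBV12-1 with TRBJ1-4. These 3 pairs thus passed the filter through libraries in which they were high, and their calls are not independent of it.

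Within experiment 2 none of the 167 pairs was called between anti-4-1BB and IgG libraries (0%, edgeR), with 11 at an unadjusted p under 0.05 and 0 by DESeq2. The TRBJ1 pairs with the smallest p each way were TRBV1 with TRBJ1-2 (-1.42 ± 0.44, adjusted p = 0.221) and TRBV10 with TRBJ1-2 (0.76 ± 0.42, adjusted p = 0.627). The difference between the treatment effects, experiment 2 minus experiment 1, was called for 7 pairs (4.19%), 3 of them TRBJ1 pairs, and for 1 pair by DESeq2. They were TRBV12-1 with TRBJ1-1 (-3.41 ± 0.81, adjusted p = 0.00961), TRBV12-1 with TRBJ1-4 (-3.66 ± 1.11, adjusted p = 0.0377) and TRBV2 with TRBJ1-1 (-3.51 ± 0.88, adjusted p = 0.00961). Without the experiment 2 KO anti-4-1BB library none of these 3 was called (adjusted p = 0.0794 to 0.241), and without the experiment 2 WT anti-4-1BB library the pairs TRBV12-1 with TRBJ1-4 (adjusted p = 0.138) and TRBV2 with TRBJ1-1 (adjusted p = 0.0514) were not.

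**Figure D5:**
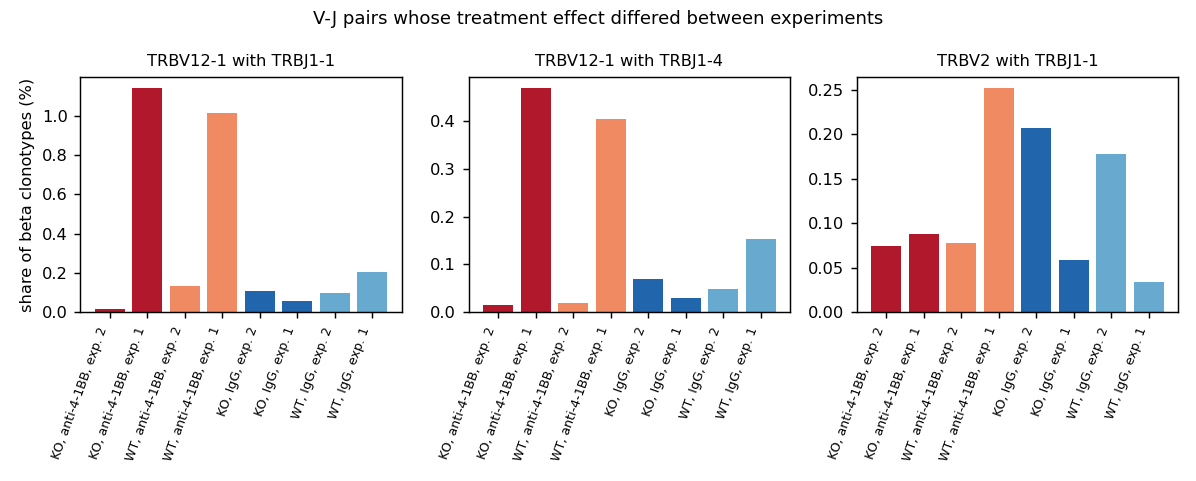
Share of beta clonotypes (vertical axes, %, each panel with its own scale) of 3 V-J pairs in each of the 8 libraries, coloured by group. TRBV12-1 with TRBJ1-1 reaches 1.14 and 1.02% and TRBV12-1 with TRBJ1-4 0.467 and 0.402% in the KO and WT anti-4-1BB libraries of experiment 1, and TRBV2 with TRBJ1-1 is at 0.251% in the experiment 1 WT anti-4-1BB library and at 0.206 and 0.177% in the experiment 2 KO and WT IgG libraries.

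Over both experiments together 0 of 167 pairs were called between anti-4-1BB and IgG libraries (0%, edgeR; 13 at an unadjusted p under 0.05, DESeq2 0). TRBV12-1 with TRBJ1-1 (2.23 ± 0.90, adjusted p = 0.499) and TRBV1 with TRBJ1-2 (-1.03 ± 0.31, adjusted p = 0.499) had the smallest p each way among TRBJ1 pairs. With the experiment as a replicate block 5 pairs were called, of which TRBV12-1 with TRBJ1-1 was the TRBJ1 pair (1.80 ± 0.41, adjusted p = 0.00284). Without the experiment 2 KO anti-4-1BB library, which held 1 clonotype of the pair, 10 pairs were called, among them TRBV12-1 with TRBJ1-1 (2.83 ± 0.41) and with TRBJ1-4 (2.16 ± 0.51). Between KO and WT libraries 0 pairs were called (0%, 2 unadjusted, DESeq2 0), with TRBV3 and TRBJ1-5 (-0.98 ± 0.35) and TRBV13-2 and TRBJ1-6 (0.82 ± 0.25) nearest (adjusted p = 0.994 each). Without the experiment 1 KO anti-4-1BB library, TRBV12-1 with TRBJ1-1 was called lower in KO (-2.95 ± 0.58). The difference between the treatment effects in KO and WT mice was called for 0 pairs (0%, 8 unadjusted, DESeq2 0). The nearest TRBJ1 pairs were TRBV29 with TRBJ1-1 (-1.67 ± 0.58) and TRBV10 with TRBJ1-3 (1.34 ± 0.56, adjusted p = 0.931 each). Without the experiment 1 KO anti-4-1BB library, TRBV12-1 with TRBJ1-1 was called in that contrast (-4.55 ± 1.24, adjusted p = 0.0459).

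Between experiments 6 pairs were called (3.59%, edgeR, and 6 by DESeq2), and 2 of them had a TRBJ1 segment, both lower in experiment 2. They were TRBV12-1 with TRBJ1-1 (-2.21 ± 0.41, adjusted p = 5.95e-05) and TRBV12-1 with TRBJ1-4 (-2.65 ± 0.53, adjusted p = 0.000203). Of single segments, TRBV12-1 was the 1 of 33 called for treatment within experiment 1 (3.03%, DESeq2 2) and the 1 called for the difference between experiments (3.03%, DESeq2 3). Within experiment 2 no segment was called (0%, edgeR, 5 at an unadjusted p under 0.05, DESeq2 0), and TRBJ1-5 had the lowest adjusted p of the cluster (-0.47 ± 0.15, adjusted p = 0.0816). It was called there without the experiment 1 WT anti-4-1BB library or without the experiment 1 KO anti-4-1BB library, neither of which is part of that contrast (adjusted p = 0.0289 each).

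The make-up of the cluster's CDR3 moved little between groups. The mean CDR3 length of TRBJ1 clonotypes was 13.54 and 13.64 residues in KO anti-4-1BB libraries (experiments 2 and 1) and 13.61 and 13.61 in WT anti-4-1BB libraries, against 13.67 and 13.67 in KO IgG libraries and 13.62 and 13.63 in WT IgG libraries. The anti-4-1BB library had the lower value in each of the 4 matched pairs, although the ranges overlap, and the difference averaged -0.051 ± 0.056 residues (p = 0.125, the smallest that the exact permutation test allows). The J bases kept were also lower with anti-4-1BB in 4 of 4 matched pairs, at 18.82 against 18.92 (difference -0.097 ± 0.013, exact permutation p = 0.125). TRBJ2 clonotypes moved the same way, by -0.072 ± 0.056 residues and -0.060 ± 0.059 J bases. Each was higher with anti-4-1BB in 1 of 4 pairs (exact permutation p = 0.250 each). Between KO and WT mice the TRBJ1 length differed by 0.011 ± 0.054 residues (p = 0.750) and between experiments 2 and 1 by -0.027 ± 0.051 (p = 0.375, exact permutation tests).

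Clonal expansion was compared after each library was thinned to 4090 cells, and a cell counted as expanded where its beta clonotype then had at least 2 cells. The expanded share of TRBJ1 cells was 27.8 ± 5.96%, against 30.6 ± 8.80% of TRBJ2 cells, lower in 6 of 8 libraries (difference -2.73 ± 3.71 points, adjusted p = 0.105, exact permutation test). It was 31.6% and 26.4% in KO anti-4-1BB libraries (experiments 2 and 1) and 40.05% and 20.9% in WT anti-4-1BB libraries, against 27.7% and 28.3% in KO IgG libraries and 25.0% and 22.6% in WT IgG libraries. The highest and the lowest value were thus both in WT anti-4-1BB libraries, 1 of each experiment. The difference between anti-4-1BB and IgG was 3.81 ± 7.95 points over both experiments (exact permutation p = 0.500), 9.47 points in experiment 2 and -1.84 points in experiment 1. KO and WT differed by 1.37 ± 6.65 points (p = 0.750) and experiments 2 and 1 by 6.55 ± 8.72 points (p = 0.250, exact permutation tests).

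By segment the mean expanded share ran from 29.9 ± 10.9% for TRBJ1-1 to 23.9 ± 10.8% for TRBJ1-5, and no neighbours in the order of 12 TRBJ segments differed (adjusted p = 1 for each, exact permutation test). Among TRBJ1 segments TRBJ1-1 had the highest single value, 54.3% in the experiment 2 WT anti-4-1BB library, against 20.6 to 31.8% in the other 7. TRBJ2-4 reached 60.03% in the same library. In that library 9 TRBJ1-1 clonotypes of at least 10 cells held 358 of 918 TRBJ1-1 cells (39.0%), and the largest held 132 (14.4%). TRBJ1-6 was higher in experiment 2 than 1 in 4 of 4 groups, at 37.1% against 21.7% (difference 15.4 ± 12.2 points), and so was TRBJ1-4, at 26.8% against 21.3% (5.47 ± 3.99 points, exact permutation p = 0.125 each). This was not particular to TRBJ1, as TRBJ2-4 was also higher in each group. Its values were 54.3, 60.03, 32.9 and 32.1% in experiment 2 (KO and WT anti-4-1BB, then KO and WT IgG). In experiment 1 they were 19.9, 16.7, 22.7 and 26.0%. When expanded and single-cell clonotypes of the same library were compared by edgeR, 1 of 33 segments was called (3.03%) and it was TRBV12-1. The 6 TRBJ1 segments had log2 differences between -0.22 for TRBJ1-5 and 0.03 for TRBJ1-1, with adjusted p of at least 0.432. TRBJ1-1 made up 9.25 ± 1.25% of expanded and 9.03 ± 0.70% of single-cell clonotypes.

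The most expanded beta chain of each segment is shown because it held up to 21.6% of the segment's cells in its library. For TRBJ1-4 and TRBJ1-6 this was not the library with the segment's highest expanded share. Those highest shares were 30.9% for TRBJ1-4 (experiment 2 WT anti-4-1BB) and 46.9% for TRBJ1-6 (experiment 2 KO anti-4-1BB). The CDR3 is written with the bases that match the J segment's end in capitals, and none of these chains had a D label.
TRBJ1-1 with TRBV13-1: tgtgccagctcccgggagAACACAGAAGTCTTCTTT
TRBJ1-2 with TRBV20: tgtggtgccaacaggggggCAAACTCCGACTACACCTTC
TRBJ1-3 with TRBV29: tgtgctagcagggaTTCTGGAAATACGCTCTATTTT
TRBJ1-4 with TRBV13-3: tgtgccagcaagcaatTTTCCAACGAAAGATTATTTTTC
TRBJ1-5 with TRBV29: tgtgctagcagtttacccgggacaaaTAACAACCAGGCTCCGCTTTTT
TRBJ1-6 with TRBV3: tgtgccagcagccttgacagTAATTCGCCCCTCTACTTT

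The TRBJ1-1 chain had 132 cells in the experiment 2 WT anti-4-1BB library, and of its 68 cells with a TRA contig 61 shared 1 alpha chain. The TRBJ1-2 chain had 51 cells in the same library, 13.5% of that segment's cells there. The TRBJ1-3 chain had 42 cells and the TRBJ1-4 chain 24 cells, both in the experiment 2 KO anti-4-1BB library. The TRBJ1-5 chain had 19 cells in the experiment 1 KO anti-4-1BB library, which is 21.6% of that library's TRBJ1-5 cells, where the expanded share of TRBJ1-5 was 45.5%. The TRBJ1-6 chain had 36 cells in the experiment 2 KO IgG library, although TRBV3 was the V segment furthest below expectation with TRBJ1-6.

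A share of 3.92 ± 0.418% of TRBJ1 clonotypes had the same V, J and CDR3 nucleotides in a second library, against 3.79 ± 0.541% of TRBJ2 clonotypes (adjusted p = 0.555, exact permutation test). The chains found in most libraries are shown for the segments where these reached 4 or 5 of 8, again with J bases in capitals.
TRBJ1-3 with TRBV10: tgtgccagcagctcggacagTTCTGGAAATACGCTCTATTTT
TRBJ1-4 with TRBV10: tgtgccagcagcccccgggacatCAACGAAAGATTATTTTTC
TRBJ1-6 with TRBV13-2: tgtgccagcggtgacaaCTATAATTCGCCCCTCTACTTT

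The TRBJ1-3 chain had 7 cells in 5 libraries, among them all 4 anti-4-1BB libraries. The TRBJ1-4 chain had 13 cells in 5 libraries, among them all 4 IgG libraries. The TRBJ1-6 chain had 8 cells in 4 libraries, and its V label was the joined one of TRBV12-2 and TRBV13-2, read here as TRBV13-2. The cells that carried a given chain had several alpha chains, 4 for the TRBJ1-3 chain, 5 for the TRBJ1-4 chain and 3 for the TRBJ1-6 chain. With 7 to 13 cells each, these chains cannot show a difference between groups. The chains found most widely for TRBJ1-1, TRBJ1-2 and TRBJ1-5 were in 3, 3 and 2 libraries.

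Cells with an invariant NKT receptor used the cluster in 84 of 231 cases (36.4%, exact 95% binomial interval 30.2 to 42.9%), against 29.7% of other cells. TRBJ1-2 was in 10.4% of them (interval 6.77 to 15.1%), against 4.95% of other cells, and TRBJ1-6 in 0.433% (interval 0.011 to 2.39%), against 2.57%. Of these 231 cells 105 came from the experiment 2 KO IgG library and 61 from the experiment 2 WT IgG library, so the values rest largely on these 2 libraries, and cells of 1 clone are not independent.

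As a description of how the segments' shares moved together over the 8 libraries, the most like of the other 32 TRB segments was named for each, by Pearson's r of centred log ratio shares. It was TRBV12-1 for TRBJ1-1 (r = 0.75), TRBV1 for TRBJ1-2 (r = 0.88), TRBV12-2 for TRBJ1-3 (r = 0.55), TRBV3 for TRBJ1-4 (r = 0.41), TRBV23 for TRBJ1-5 (r = 0.59) and TRBV30 for TRBJ1-6 (r = 0.85). No TRBJ1 segment was the most like of another. The segments share libraries and depth, and shares of 1 library sum to a fixed total.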

How the data were processed

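V(D)J libraries of 8 sorted CD44high CD4+ spleen samples were used. The authors deposited, per the file headers, a contig annotation table per library with the V, D, J and C labels, the CDR3 nucleotides and the count of reads and of UMIs of each contig. The submitters' processing notes name Cell Ranger 7.1.0, bcl2fastq 2.20.0, Seurat and GRCm38, and the V(D)J reference is not given in the sources used here.

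The files held 123611 contigs of 74368 cells. Cells with at least 2 TRB contigs (4077) or none (3853) were left out, which left 66438. Joined labels of TRBV12-2 and TRBV13-2 were read as TRBV13-2. J bases kept are the run of CDR3 bases from the 3′ end that match the J consensus. Clonotype counts per segment (at least 10 in at least 2 libraries) or V-J pair (at least 10 expected on average) were tested with edgeR 4.0.16 (quasi-likelihood, R 4.3.3, Benjamini-Hochberg, threshold 0.05), V and J segments against their own totals, with DESeq2 1.42.0 as an alternative. Single measures were tested with two-sided exact sign-flip permutation tests of differences within libraries or within matched pairs of libraries. Exact binomial intervals were computed with scipy 1.17.1. Scripts were tested on simulated data. Totals were 8039901 to 15045635 reads and 51327 to 261885 TRB UMIs per library, and intervals cover counting error only.

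Replicate numbers are the experiments, which the labels mark as batches, so they pair the groups by label. In edgeR and DESeq2 contrasts by experiment, means were fitted per experiment and treatment, with KO and WT libraries as replicates. Same-numbered libraries correlated in their deviations from the group means with r of -0.331 to 0.861 over 6 pairs of groups, above 0.1 in 3. The members and lists were chosen with earlier results of these data known. Named are all 6 segments in every comparison, for each segment the called V-J pair furthest above and below expectation, between groups the called TRBJ1 pairs or else those with the smallest p each way, the most like segment, the chain with most cells and the chain in most libraries. Alternatives were other cell and UMI filters, count units, normalizations and models, and each library left out.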

Additional observations from a re-analysis of the deposited data

Results flagged for a closer look

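The effect of anti-4-1BB against IgG was called as different between experiments for 3 pairs of a V and a TRBJ1 segment, by edgeR's test of the difference itself (experiment 2 minus experiment 1). The log2 difference was -3.66 for TRBV12-1 with TRBJ1-4, -3.51 for TRBV2 with TRBJ1-1 and -3.41 for TRBV12-1 with TRBJ1-1. Cre type and tamoxifen differ with the experiment and cannot be told apart from it.

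In 4 further measures of TRBJ1 segments or their cluster every matched pair of libraries moved one way in experiment 2 and the opposite way in experiment 1, and the difference was not tested. The treatment difference in mean CDR3 length of TRBJ1-4 was -0.19 residues, experiment 2 minus experiment 1. The treatment difference in the expanded share of cells was higher in experiment 2 by 19.9 points for TRBJ1-1, 16.5 points for TRBJ1-3 and 11.3 points for the whole cluster. For TRBJ1-1 in experiment 2 it came mostly from WT mice, at 54.3% with anti-4-1BB and 20.7% with IgG. In KO mice the values were 31.0% and 29.0%. TRBJ2 cells turned the same way, with treatment differences of 12.96 points in experiment 2 and -9.69 points in experiment 1, and for TRBJ2-4 these were 24.7 and -6.02 points. With 2 libraries in a group, single libraries could not be tested as outliers.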

How the results depend on the processing

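Of 1287 recomputed values of 83 results, 1114 kept their direction and their side of the threshold and 38 changed sign. Leaving out TRBV12-1 or the second TRBJ1-5 sequence was chosen after the data were seen. Except where a cause follows from fewer features or libraries, the cause was not tested.

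Counts of called TRB segments moved as follows. Between anti-4-1BB and IgG (0 called) leaving out the second TRBJ1-5 sequence gave 2, and leaving out single libraries 0 to 1. Within WT mice (0) these were 1, and 0 to 1. For KO against WT within anti-4-1BB (0) and for the difference of treatment effects between KO and WT (0), single libraries left out gave 0 to 2 each. Between experiments 2 and 1 (2 called) there were 1 with at least 3 UMIs, 1 with the joined V label kept apart, 0 without TRBV12-1, 4 with TMM factors, 1 with genotype as a term, and 1 to 6 without single libraries. For treatment within experiment 1 (1 called) there were 0 without TRBV12-1, 5 without the second TRBJ1-5 sequence, 2 with TMM factors, 2 with DESeq2, 4 with an abundance trend and 1 to 3 without single libraries. Within experiment 2 (0 called) there was 1 without TRBV12-1, 1 without the second TRBJ1-5 sequence and 0 to 1 without single libraries. For the difference between experiments (1 called) there were 0 without TRBV12-1, 3 with DESeq2 and 0 to 3 without single libraries. For expanded against single clonotypes (1 called) there were 0 in cells with 1 or 2 TRA, 3 after thinning and 1 to 2 without single libraries.

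Counts of called V-J pairs between anti-4-1BB and IgG (0) were 2 at a minimum of 20 expected, 5 with the replicate block and 0 to 10 without single libraries. No other call changed with the replicate block. Between KO and WT (0) they were 0 to 4, and for the difference of treatment effects between KO and WT (0) 0 to 1, without single libraries. Between experiments (6) they were 2 at 20 expected and 1 to 9 without single libraries. For treatment within experiment 1 (11) they were 1 at 20 expected, 6 with cells counted and 4 to 12 without single libraries. Within experiment 2 (0) there was 1 with cells counted and 1 in cells with 1 or 2 TRA. For the difference between experiments (7) there were 2 at 20 expected, 4 with the joined label apart, 1 with DESeq2 and 0 to 5 without single libraries. Against independence (63) there were 34 at 20 expected, 32 with cells counted and 30 in cells with 1 or 2 TRA.

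The log2 treatment difference of TRBJ1-3 changed sign to -0.092 with cells counted, -0.025 in cells with 1 or 2 TRA and -0.0011 with the replicate block, and that of TRBJ1-6 to 0.0010 with TMM factors. Of KO against WT, TRBJ1-1 changed to -0.0016 with cells counted and -0.0048 with TMM factors, and in cells with 1 or 2 TRA TRBJ1-3 changed to -0.012 and TRBJ1-4 to 0.00085. Without the second sequence TRBJ1-5 had 0.21 for KO against WT, 0.20 for experiment 2 against 1 and 0.28 for the difference between experiments. For treatment in experiment 1 it had -0.75 (adjusted p = 0.000121, edgeR), against 0.046 (adjusted p = 0.826, edgeR) with the sequence kept. Leaving the sequence out lowers 1 anti-4-1BB library by construction, so the lower value cannot show a treatment difference. With DESeq2 and the sequence kept, the TRBJ1-5 treatment difference in experiment 1 was -0.034. The cluster's expanded share, KO minus WT, was -2.52 points in cells with 1 or 2 TRA and -2.06 with no thinning, and the TRBJ1-4 share was 0.0430 points in cells with 1 or 2 TRA.

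Without single libraries, the log2 treatment difference ranged over -0.043 to 0.10 for TRBJ1-1, -0.032 to 0.024 for TRBJ1-3 and -0.071 to 0.0065 for TRBJ1-6. KO against WT ranged over -0.050 to 0.097 for TRBJ1-1, -0.017 to 0.079 for TRBJ1-2 and -0.26 to 0.12 for TRBJ1-5. Experiment 2 against 1 ranged over -0.060 to 0.0093 for TRBJ1-3, -0.28 to 0.071 for TRBJ1-5 and -0.069 to 0.14 for TRBJ1-6. TRBJ1-5 ranged over -0.48 to 0.19 for treatment in experiment 1 and -0.69 to 0.015 for the difference between experiments. The expanded share of TRBJ1 minus TRBJ2 was between -3.59 points, past the threshold without the experiment 1 WT anti-4-1BB library, and -2.07. For KO minus WT the cluster's CDR3 length ranged over -0.0012 to 0.038 residues and its expanded share over -0.075 to 4.62 points. TRBJ1-5 and TRBJ1-6, with 58 to 269 clonotypes in a library, limit what could be tested.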
